A study of Danio rerio with 9 samples.

Results

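Long intergenic noncoding RNAs (lincRNAs) are transcripts from between protein-coding genes that are judged not to code for protein, and most of them are expressed at low levels. The 6 lincRNAs described here were among the most abundant lincRNAs of the zebrafish heart, and their level in adult muscle was near or above that of at least 1 of the heart tissues. They belong to the 813 cardiac lincRNAs that the study listed for embryonic heart, adult heart, or both, and all 6 were in both heart lists. They were chosen by expression. The mean over all samples had to exceed 50 FPKM, a measure of read fragments relative to transcript length and to sequencing depth, and the mean in adult muscle had to reach 0.5 times the mean of at least 1 heart tissue.

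The tissues were embryonic heart at 4 days, adult heart at 6 months, and muscle of adult fish, all from wild-type zebrafish (Danio rerio). The methods name the WIK strain for the fish that were kept, and say that these samples were sequenced for an earlier study of the same group. Each tissue type had 3 samples, numbered from 0 in the labels, and no treatment or mutation was involved. The methods call the 9 samples biological samples, and neither the labels nor the methods say how many fish were pooled into a sample or whether adult heart and muscle came from the same fish. The values carry identifiers of assembled transcripts (TCONS) without gene names, so the tissue labels could not be checked against marker genes.

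LincRNAs are sorted from mRNAs by coding potential, and the sorting can change as annotation improves. Known lincRNAs act in the nucleus on chromatin and transcription or in the cytoplasm on mRNAs and microRNAs, and some prove to encode short peptides. Heart and body muscle both consist largely of striated muscle cells, which share some but not all contractile and mitochondrial genes. In bulk samples of whole tissue, fewer cells of a type and less RNA per cell cannot be told apart. Of the 6, 3 carried an earlier annotation and 3 did not. In the methods, the filters on coding potential are described only for candidates without an annotation.

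Primer pairs were designed for 5 of the 6 lincRNAs in the study, and they are shown here because they are the only stretches of these transcripts at hand. Whether a pair would also count an overlapping transcript was not tested. They are written 5′ to 3′ in lower case, with no part in capitals since no motif is concerned.
TCONS_00009015 forward: gaggagaagaaagaggaggtg
TCONS_00009015 reverse: gtacaagaaaagaggtacaggg
TCONS_00023933 forward: ttcggcttggagacatcag
TCONS_00023933 reverse: gagaaacgctgtcaaaatgc
TCONS_00028652 forward: gacacggaaaggattgacag
TCONS_00028652 reverse: ttcgttatcggaatgaaccag
TCONS_00017202 forward: tgcaagacggaggtttattg
TCONS_00017202 reverse: cacaccagttgctctctttac
TCONS_00023920 forward: tcgagctttgtttaggctttc
TCONS_00023920 reverse: ttgagtagcaagcgtgacg
The primers were 19 to 22 bases long with a GC content between 42.9% and 52.6%. The forward primer of TCONS_00009015 was made almost wholly of purines, with 20 of its 21 bases A or G.

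By these thresholds, 15 of the 813 cardiac lincRNAs had a mean above 50 FPKM, and 9 of the 15 also met the condition on muscle. The 6 lincRNAs are the 9 without TCONS_00022567, TCONS_00015542, and TCONS_00002726, which had the lowest means of the 9. The separation at this point was small: the mean over 9 samples was 73.9 FPKM for TCONS_00023933, the lowest of the 6, and 73.8 FPKM for TCONS_00022567. At the level threshold itself, TCONS_00002726 lay just above with 53.1 FPKM and TCONS_00052125 just below with 47.9 FPKM. The muscle threshold fell in a wide gap. The lowest ratio of the muscle mean to the lower heart mean above it was 1.13 for TCONS_00028652, and the highest below it was 0.349 for TCONS_00022936. The muscle mean was above the lower heart mean in all 6, which the rule partly fixed. In TCONS_00028652 this did not hold throughout: muscle was 0.999 times adult heart with medians in place of means, 0.997 times without adult muscle replicate 2, and 0.988 times after quantile normalization, and it was below embryonic heart in each case.

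**Figure D1:**
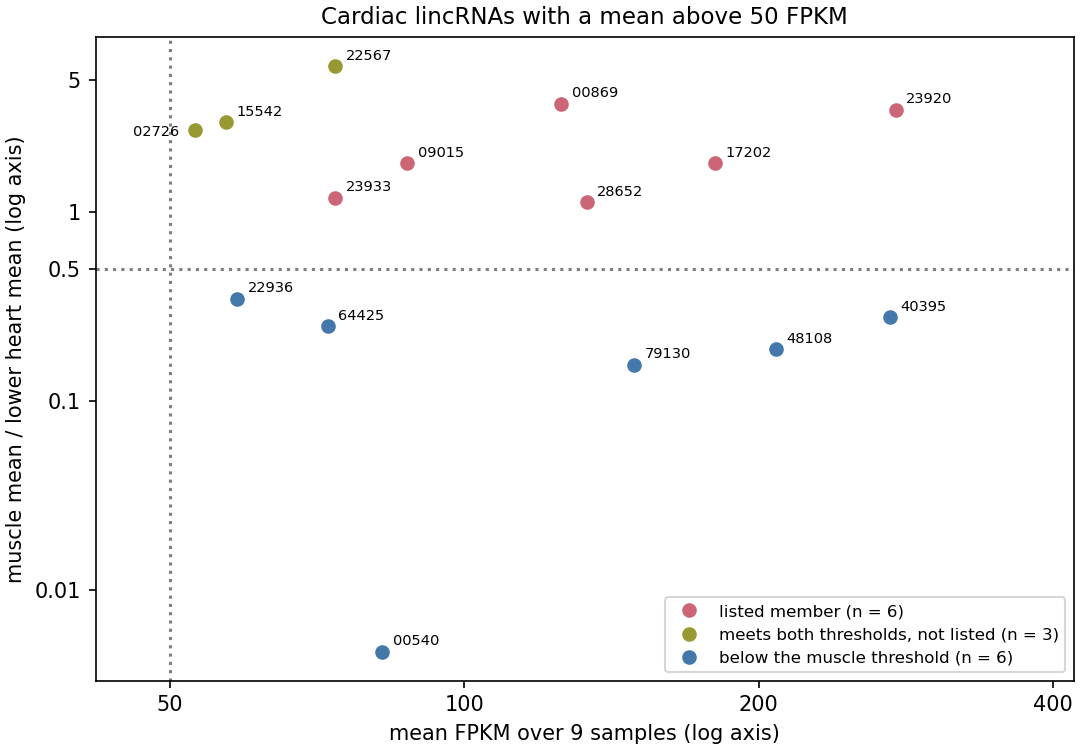
The 15 cardiac lincRNAs with a mean above 50 FPKM, by mean FPKM over 9 samples (x axis, log scale) and by the ratio of the adult muscle mean to the lower of the 2 heart means (y axis, log scale), with the last 5 digits of each identifier; dotted lines mark the thresholds. The 6 members (red) have ratios of 1.13 or more, 3 further lincRNAs (olive) pass both thresholds, and 6 (blue) have ratios of 0.349 or less.

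The names of 2 annotated lincRNAs led to protein-coding genes. TCONS_00009015, a transcript of 6 exons and 1521 nt, spanned 40425286 to 40428910 of chromosome 10 (Zv9, as are all positions given here) and was annotated as lnc_rps25_1. In the RefSeq gene table of assembly GRCz12tu, lnc_rps25 is a synonym of hmgn1b, a protein-coding gene on chromosome 10 that also carries the synonym linc-mipep. There it lies beside mipepb, with rps25, the gene of a ribosomal protein, as the next gene. The match leaves out the ending _1 of the annotation, and positions were not compared. Whether the transcript is that gene was not tested. HMGN proteins bind nucleosomes, and linc-mipep is known in zebrafish as a former long noncoding RNA found to encode a micropeptide related to them. TCONS_00023933, of 4 exons and 642 nt, spanned 49049469 to 49052370 of chromosome 14 and was annotated as LOC100000992oa_1. The gene ID contained in this name is that of ndufc1 in the same table, a protein-coding gene on chromosome 14 between mgarpa and naa15a. Ndufc1 is a subunit of complex I of the mitochondrial respiratory chain. What the letters after the gene ID stand for, and therefore whether the transcript is that gene, its antisense partner, or a neighbour, is not given in the sources used here. No source used here states whether the libraries kept the strand, and without strand a gene and its antisense partner share reads.

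The other 4 lincRNAs had no match to a RefSeq name. TCONS_00028652 was listed on chromosome 16 from 16405421 to 16405989 as a single exon of 568 nt, and was annotated as the Ensembl transcript ENSDART00000150571. TCONS_00000869 lay on the unplaced sequence Zv9_NA631 from 13143 to 15191, with 3 exons and only 255 nt. It was unannotated, and only 30 of the 813 cardiac lincRNAs were shorter. TCONS_00017202 was unannotated too and was listed on chromosome 12 from 50611939 to 50612318, with 2 exons and 365 nt. TCONS_00023920, the third unannotated member, lay on chromosome 14 from 48566236 to 48573747, with 2 exons and 7506 nt, and 17 cardiac lincRNAs were longer. It ended 475722 bases before the start of TCONS_00023933.

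The gene structures of TCONS_00017202 and TCONS_00023920 left almost no room for an intron. The genomic span exceeded the transcript length by 15 bases for TCONS_00017202 and by 6 bases for TCONS_00023920. The same difference was 1 base in all 73 cardiac lincRNAs with 1 exon, where no intron exists. Among the 740 cardiac lincRNAs with more than 1 exon, the median difference was 1604 bases, and a difference of at most 15 bases was found in 5, these members included. In TCONS_00009015, TCONS_00023933, and TCONS_00000869 the difference was 2104, 2260, and 1794 bases, in the usual range.

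All 6 lincRNAs were far above the usual level of a cardiac lincRNA, for which the median over the 813 was 0.600 FPKM in adult heart, 0.482 FPKM in adult muscle, and 0.382 FPKM in embryonic heart. The means of the 6 ranged from 50.7 to 321 FPKM in adult muscle, from 27.8 to 416 FPKM in adult heart, and from 60.4 to 184 FPKM in embryonic heart. The 6 together held between 21.8% and 23.9% of the summed FPKM of the cardiac lincRNAs in single embryonic heart samples. This share was between 17.2% and 23.7% in adult heart samples and between 27.5% and 31.7% in adult muscle samples. These values follow from the choice of abundant lincRNAs and are a description. The order of the tissues differed within the group. It was embryonic heart, adult muscle, adult heart from high to low in 3 lincRNAs, adult muscle, adult heart, embryonic heart in 2, and adult heart, adult muscle, embryonic heart in 1.

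**Figure D2:**
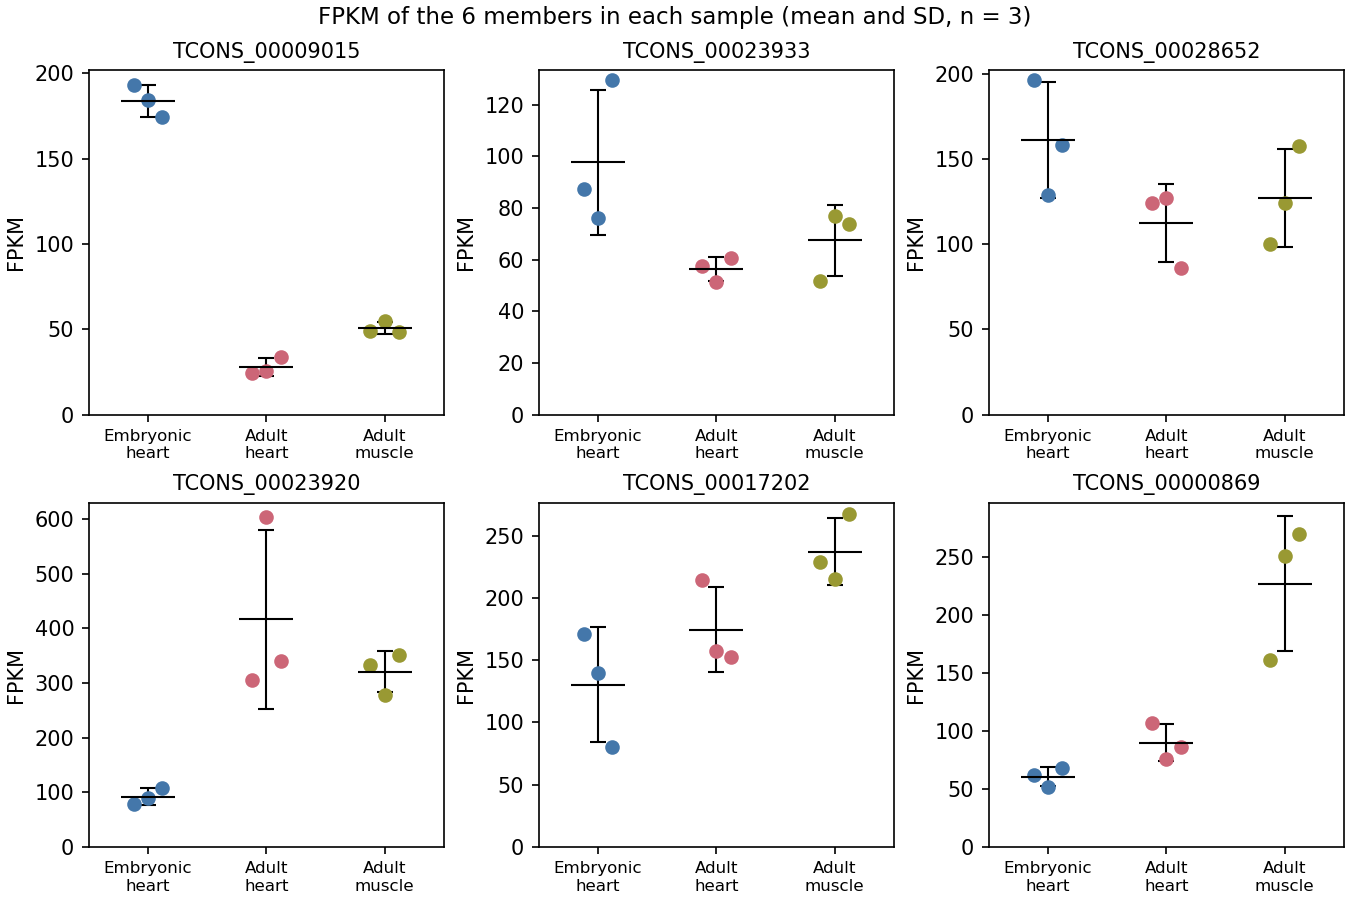
FPKM (y axis, linear from 0, a different scale in each panel) of the 6 lincRNAs in each of the 9 samples (points, replicates 0, 1, and 2 from left to right) of the 3 tissue types, with the mean and SD in black. TCONS_00009015, TCONS_00023933, and TCONS_00028652 (top) have their highest mean in embryonic heart, and TCONS_00023920, TCONS_00017202, and TCONS_00000869 (bottom) their lowest.

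As in TCONS_00000869, the 3 tissues were fully separated in TCONS_00009015, whose annotation without its ending is a synonym of hmgn1b. TCONS_00009015 passed the level threshold only through embryonic heart and the muscle condition only through adult heart. Its separation is therefore a description. Its FPKM was 193, 185, and 174 in embryonic heart replicates 0, 1, and 2, which was the second highest mean of any cardiac lincRNA in that tissue. It was 24.3, 25.4, and 33.8 in adult heart and 49.0, 54.5, and 48.5 in adult muscle. No sample of one tissue type overlapped with another, so the order of embryonic heart, adult muscle, and adult heart held in every sample. The means were 184 ± 9.31, 50.7 ± 3.36, and 27.8 ± 5.20 FPKM (SD, n = 3 each). Muscle was thus 1.82 times adult heart, and embryonic heart was 3.63 times muscle.

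TCONS_00023933, whose name contains the gene ID of ndufc1, had a narrower range. Its FPKM was 87.3, 76.3, and 129 in embryonic heart, 57.4, 51.5, and 60.6 in adult heart, and 51.7, 76.9, and 73.8 in adult muscle. Adult heart lay below every embryonic heart sample, whereas muscle overlapped with both hearts. The means were 97.7 ± 28.0 FPKM in embryonic heart, 67.5 ± 13.7 FPKM in muscle, and 56.5 ± 4.62 FPKM in adult heart (SD, n = 3 each). Of the neighbours in this order, neither embryonic heart and muscle nor muscle and adult heart differed beyond the spread between samples.

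TCONS_00028652, the single-exon Ensembl lincRNA, varied least between tissues. Its FPKM was 197, 129, and 158 in embryonic heart, 124, 127, and 85.9 in adult heart, and 99.9, 124, and 157 in adult muscle. The lowest embryonic heart sample was only slightly above the highest adult heart sample, and muscle overlapped with both hearts. The means were 161 ± 34.0, 112 ± 22.9, and 127 ± 28.9 FPKM (SD, n = 3 each) in that order. The highest tissue mean was 1.44 times the lowest, the smallest such ratio of the 6, and neighbours in the order of tissues did not differ beyond their spread.

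TCONS_00017202, the unannotated lincRNA at 365 nt, was highest in adult muscle. Its FPKM was 228, 215, and 267 in muscle, 214, 157, and 152 in adult heart, and 171, 140, and 80.3 in embryonic heart. Every muscle sample was above every heart sample, but the highest adult heart sample came within 2 FPKM of the lowest muscle sample, and the hearts overlapped. The means were 237 ± 26.9, 175 ± 34.2, and 130 ± 45.9 FPKM (SD, n = 3 each), so muscle was 1.36 times adult heart and 1.82 times embryonic heart.

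TCONS_00000869, the shortest of the 6, had the same order with a larger difference to muscle. Its FPKM was 161, 251, and 270 in adult muscle, 107, 75.6, and 86.2 in adult heart, and 61.6, 51.9, and 67.8 in embryonic heart. The 3 tissue types did not overlap. The means were 227 ± 58.2, 89.7 ± 16.1, and 60.4 ± 8.03 FPKM (SD, n = 3 each). Muscle was 2.53 times adult heart and 3.76 times embryonic heart, the largest excess of muscle over either heart among the 6.

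TCONS_00023920, the 7506-nt lincRNA, was the most abundant cardiac lincRNA in adult muscle and the second most abundant in adult heart. Its FPKM was 305, 604, and 340 in adult heart, 332, 279, and 351 in adult muscle, and 78.6, 88.6, and 108 in embryonic heart. Embryonic heart lay below every adult sample, while adult heart and muscle overlapped. The means were 416 ± 164, 321 ± 37.7, and 91.8 ± 15.1 FPKM (SD, n = 3 each). The excess of adult heart over muscle rested on adult heart replicate 1, since the ratio of muscle to adult heart was 0.770 with this sample and 0.995 without it.

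Across the 6, muscle samples were all above all adult heart samples in 3 lincRNAs and overlapped with them in the other 3. Such a separation was found for 42.5% of the 69118 transcripts tested (21.7% with muscle higher and 20.8% with muscle lower) and for 64.1% of the 1417 with a mean above 50 FPKM. Against embryonic heart, muscle was above without overlap in 3 lincRNAs and below in 1, where the share was 43.5% of all transcripts (26.1% higher and 17.4% lower) and 72.3% of the abundant ones. The rule used muscle against heart, so no test is given and nothing is read from these counts. The ratios of muscle to adult heart ran from 0.770 to 2.53 with a median of 1.28, and those of muscle to embryonic heart from 0.276 to 3.76 with a median of 1.30. The 2 sets of ratios share the muscle samples. After quantile normalization, which forces the same distribution on every sample, the ratios to embryonic heart were all lower, from 0.165 for TCONS_00009015 to 2.47 for TCONS_00000869, and that of TCONS_00017202 went from 1.82 to 1.05.

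**Figure D3:**
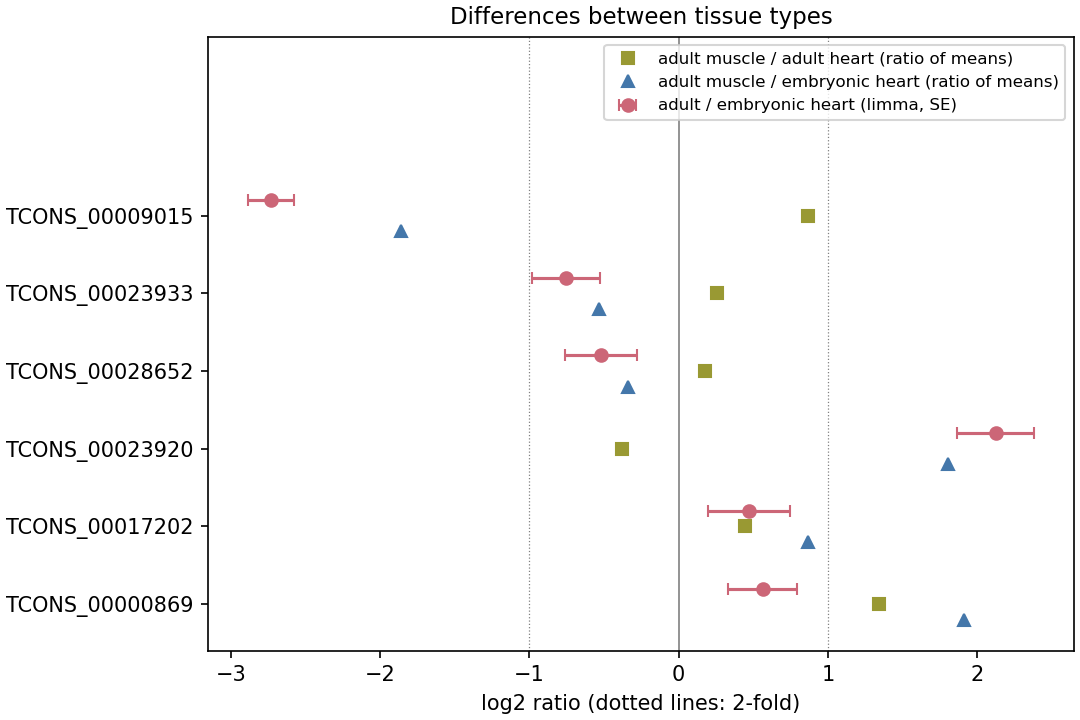
Log2 ratios between tissue types (x axis) for the 6 lincRNAs (y axis): adult against embryonic heart from limma with its standard error (red), and the log2 of the ratio of mean FPKM of adult muscle to adult heart (olive) and to embryonic heart (blue). Only TCONS_00009015 at -2.73 and TCONS_00023920 at 2.12 exceed a 2-fold difference between the hearts, in opposite directions. The value of TCONS_00009015 is a description, since it was chosen through its level in embryonic heart.

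The comparison of adult with embryonic heart asks which lincRNAs change between the developing and the mature organ. The rule set no condition on this difference, although a low mean in one heart made the condition on muscle easier to meet. For TCONS_00009015 the condition on the level decided it too. Its mean over the 6 adult samples was 39.3 FPKM, so it passed 50 FPKM only through embryonic heart, and its difference between the hearts is given as a description without a test. The other 5 stayed above 50 FPKM without any 1 tissue type. The test was limma on log2(FPKM + 0.1) in one fit of the 9 samples, two-sided, with Benjamini-Hochberg adjustment over the 69118 transcripts tested. Calls needed both an adjusted p below 0.05 and means that differed more than 2-fold. Of the other 5 lincRNAs, only TCONS_00023920 was called, with more in adult heart. Calls were made for 19.4% of all transcripts tested (12.2% with more in adult and 7.23% with more in embryonic heart) and for 38.4% of those with a mean above 50 FPKM (26.6% and 11.8%). The share was 29.6% in the 810 cardiac lincRNAs tested and 40.0% in the 15 abundant ones. Nothing is read from the count of 1 in 5.

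TCONS_00009015 had 6.61 times as much in embryonic as in adult heart by the ratio of means. Its log2 fold change in the fit, -2.73 (standard error 0.155), is a description too, since it was chosen through its level in embryonic heart. TCONS_00023920 was higher in adult heart, with a log2 fold change of 2.12 (standard error 0.260, adjusted p = 0.000810, same test from limma) and a ratio of 4.53. The log2 fold change was 1.82 when its high sample, adult heart replicate 1, was left out (adjusted p = 0.00149, same test from limma). The median of all transcripts tested was shifted by 0.18 towards adult heart on the log2 scale. This median changed with the constant added to FPKM, to 0.035 with 1 and 0.36 with 0.01. It is therefore not a baseline for lincRNAs at this level.

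The other 4 lincRNAs were not called. TCONS_00023933 had a log2 fold change of -0.75 (standard error 0.230) and an adjusted p of 0.0482 from limma, but its ratio, 1.73 times as much in embryonic heart, did not reach 2. The log2 fold change was -0.52 for TCONS_00028652 (standard error 0.239, adjusted p = 0.161, same test from limma). It was 0.47 for TCONS_00017202 (standard error 0.274, adjusted p = 0.264) and 0.56 for TCONS_00000869 (standard error 0.228, adjusted p = 0.118, both from limma). The adult and embryonic heart samples did not overlap in 5 of the 6 lincRNAs, TCONS_00017202 being the exception, with adult heart higher in 2 and lower in 3. TCONS_00009015, which was chosen through its level in embryonic heart, is among the 3 that were lower. The share without overlap was 39.3% of all transcripts tested (24.2% higher and 15.0% lower in adult heart) and 61.0% of the abundant ones. Nothing is read from this count.

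The scaling of the samples changed part of this picture. Summed FPKM over all transcripts was 4.49e+06, 1.45e+07, and 1.92e+07 in embryonic heart replicates 0, 1, and 2. It was between 2.79e+06 and 4.64e+06 in the adult samples. A single transcript held between 29.9% and 55.9% of the sum of a sample. The part of this imbalance in the ratios between embryonic and adult samples was not tested. Rescaling each sample by its median ratio, over the 11360 transcripts above 1 FPKM in every sample, used factors between 0.956 and 1.05. TCONS_00023920 was then at 2.17 on the log2 scale (adjusted p = 0.000995 from limma) and still called. TCONS_00023933 and TCONS_00028652 were not called. Quantile normalization moved the 6 log2 fold changes towards embryonic heart. TCONS_00009015 was then at -3.23 and TCONS_00023920 at 1.58 (adjusted p = 0.00655 from limma). TCONS_00023933 at -1.13 (adjusted p = 0.00850) and TCONS_00028652 at -1.09 (adjusted p = 0.00848, same test from limma) were called as well as TCONS_00023920. TCONS_00017202 changed its direction to -0.12 (adjusted p = 0.821 from limma). The ratio of muscle to adult heart of TCONS_00028652 went from 1.13 to 0.988. The direction of the difference of TCONS_00017202 between hearts thus depended on the scaling, and that of TCONS_00028652 between muscle and adult heart on the scaling, on the use of means, and on adult muscle replicate 2.

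Of the 6 lincRNAs, 2 overlapped in span with other listed lincRNAs. Strand was not used here, and whether the overlapping transcripts belong to the same gene was not tested. Where they share sequence, the FPKM is the part of the fragments that the authors' programs assigned to each. The span of TCONS_00023920 overlapped with TCONS_00022566, from 48566254 to 48573719 with 7259 nt, and TCONS_00022567, from 48570202 to 48573719 with 3472 nt, both with 2 exons and unannotated. The latter is the lincRNA that fell just short of the 6. Its FPKM was 6.86, 17.2, and 29.3 in embryonic heart, 96.3, 104, and 93.6 in adult heart, and 82.3, 118, and 117 in adult muscle. As in TCONS_00023920, embryonic heart was below every adult sample and adult heart overlapped with muscle. TCONS_00022566 was lower, at 3.02 ± 2.05, 17.1 ± 18.0, and 27.9 ± 4.95 FPKM (SD, n = 3 each) in the same order.

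Summed over the 3 overlapping transcripts, whichever gene or strand they belong to, the values were 113 ± 26.7 FPKM in embryonic heart, 532 ± 187 FPKM in adult heart, and 454 ± 41.5 FPKM in muscle (SD, n = 3 each). TCONS_00023920 held 82.5% ± 7.07, 77.6% ± 3.004, and 70.5% ± 4.17 of these sums (SD, n = 3 each). Adult heart replicate 1 was still the highest sample of the sum, at 746 FPKM, against 406 and 442 FPKM in the other adult hearts. With the sum in place of the single transcript, which was added after the data were seen, the difference between the hearts was 2.21 on the log2 scale (adjusted p = 0.000653 from limma). TCONS_00023920 makes up most of the sum, so this value is not independent of its own test.

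**Figure D4:**
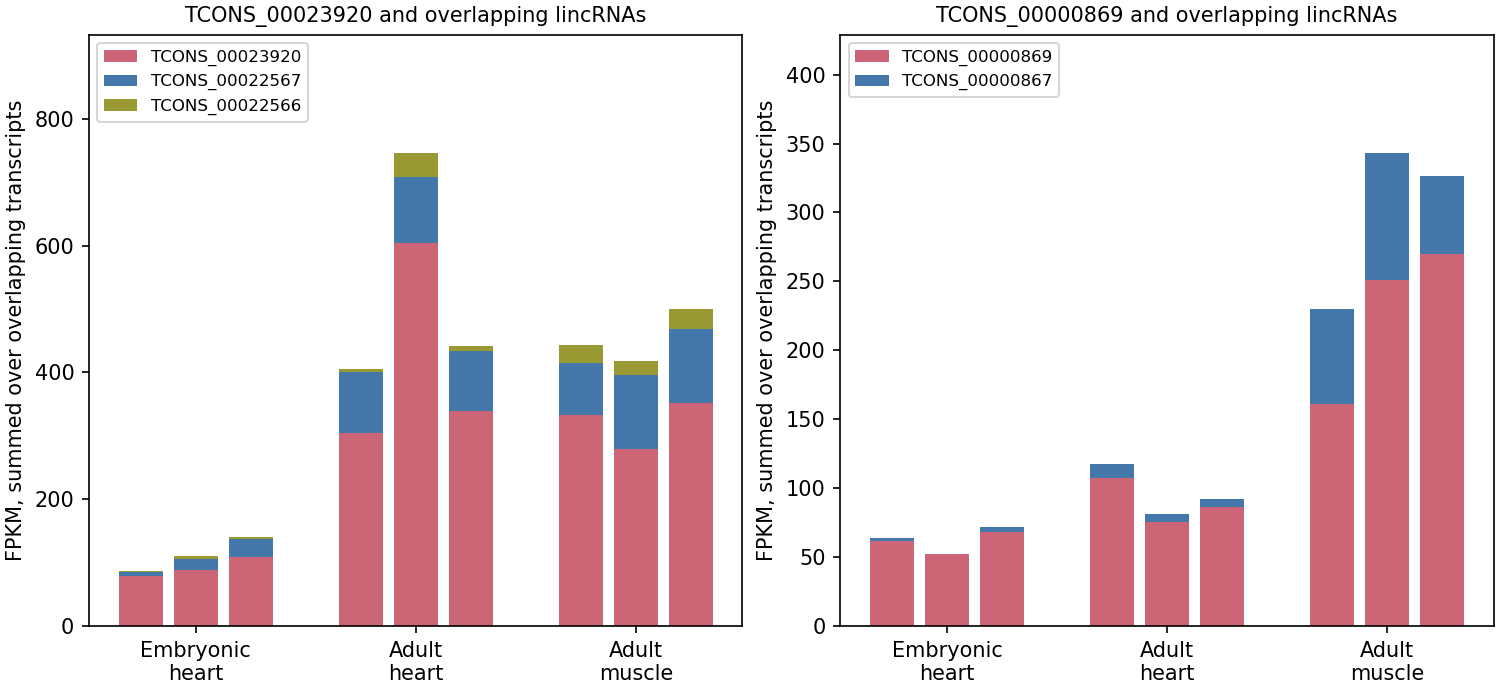
FPKM summed over overlapping listed lincRNAs (y axis, linear from 0) in each sample (bars, replicates 0, 1, and 2 from left to right) of the 3 tissue types, for TCONS_00023920 with TCONS_00022567 and TCONS_00022566 (left) and for TCONS_00000869 with TCONS_00000867 (right). TCONS_00000867 takes a larger part of the sum in the muscle samples than in the heart samples.

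TCONS_00000869 shared its start on Zv9_NA631 with TCONS_00000867, an unannotated lincRNA of 324 nt with 3 exons that ended at 15186. The FPKM of TCONS_00000867 was 68.9, 92.5, and 56.8 in adult muscle, 10.4, 5.71, and 6.18 in adult heart, and 2.14, 0.408, and 3.82 in embryonic heart. Muscle was 9.78 times adult heart for this transcript, compared with 2.53 times for TCONS_00000869. The share of TCONS_00000869 in the sum of both was 96.8% ± 2.28 in embryonic heart and 92.5% ± 1.17 in adult heart, but 75.2% ± 6.57 in muscle (SD, n = 3 each). The muscle shares lay below all heart shares. The sum was 300 ± 61.3 FPKM in muscle, 97.1 ± 18.6 FPKM in adult heart, and 62.6 ± 9.73 FPKM in embryonic heart (SD, n = 3 each), or 3.09 times as much in muscle as in adult heart. Only listed lincRNAs are in the sum. TCONS_00000868, numbered between both, is not listed and had a mean of 28.4 FPKM in muscle, 4.06 FPKM in adult heart, and 0.579 FPKM in embryonic heart. Whether it overlaps with them was not tested.

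The spread between replicates, on which the rule set no condition, had a median coefficient of variation over the 6 of 16.0% in adult muscle, 19.1% in adult heart, and 18.8% in embryonic heart. Over the 15 abundant cardiac lincRNAs the medians were 19.1%, 18.7%, and 31.3%. The steadiest value was that of TCONS_00009015 in embryonic heart, at 5.06%, and the least steady those of TCONS_00023920 in adult heart, at 39.3%, and TCONS_00017202 in embryonic heart, at 35.3%. The number of fragments is not part of the values. The step that 1 fragment makes on a transcript of 1 kb was estimated at 0.0266 to 0.0497 FPKM. Ratios of low values between samples gave its relative size. Its level was the median of 52 low values kept within a fixed range, which makes it rough. By this estimate, the smallest number of fragments behind any value of the 6, in TCONS_00000869, was about 332, with a counting error of about 5.48%. For a given step, the number is an upper and the error a lower estimate. Cufflinks divides by an effective length that is shorter than the transcript, which matters most for the shortest.

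The highest tissue mean was between 1.44 and 6.61 times the lowest in the 6. It was 5.93 times in TCONS_00022567, 2.99 times in TCONS_00015542, and 2.74 times in TCONS_00002726, which also met both thresholds and lay within this range. In the 6 abundant cardiac lincRNAs that failed the condition on muscle it was between 3.11 and 716 times, as the choice itself favours.

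The cardiac lincRNAs with the most similar profiles were sought among the 302 others with a mean above 1 FPKM, by the root mean square difference over 9 samples of log2(FPKM + 0.1), each transcript centred on its own mean. The nearest to TCONS_00009015 was TCONS_00101671 on chromosome 9, at a difference of 0.20, with 5.79 FPKM in embryonic heart, 0.859 FPKM in adult heart, and 2.001 FPKM in muscle. The next was TCONS_00086037, at 0.36. The smallest difference of all was that between TCONS_00017202 and TCONS_00001431 on the unplaced sequence Zv9_NA918, at 0.13, followed by TCONS_00064400 (0.17), which is annotated as lnc1_snx16_1. TCONS_00071133 (0.24) and TCONS_00049464 (0.26) were nearest to TCONS_00028652, and TCONS_00022984 (0.31) and TCONS_00028652 itself (0.32) to TCONS_00023933. The last was the only case in which 1 of the 6 was among the 2 nearest profiles of another. TCONS_00000869 was nearest to TCONS_00002726 (0.31), 1 of the 3 further abundant lincRNAs that met both thresholds, and then to TCONS_00005359 (0.31). TCONS_00023920 had no profile closer than TCONS_00032699 (0.39) and TCONS_00062764 (0.41), apart from which the nearest of the other 5 was TCONS_00017202 at 0.84. These differences are a description, since the 9 samples fall into 3 tissue types.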

How the data were processed

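The data were 9 RNA-seq samples, 3 each of embryonic heart, adult heart, and adult muscle, grouped by their titles. The authors aligned the reads with TopHat2 (version 2.0.12) to Zv9, assembled transcripts with Cufflinks (version 2.2.1), and deposited FPKM values from Cuffnorm for each of 103079 transcripts and each sample. The scaling option of Cuffnorm is not given in the sources used here. Loci, exons, lengths, and annotations are those of the study's list of cardiac lincRNAs, and primers those of its primer list. RefSeq names come from GRCz12tu, whose coordinates were not used.

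The test, limma 3.58.1 (R 4.3.3), took all transcripts whose mean exceeded 0.1 FPKM in any tissue type, and was run on log2(FPKM + 0.1) with an intensity trend. This scale understates changes of low values. The Cuffdiff test of the Methods needs the reads. Simulated data with 200 changed transcripts were run to check the code of the fit. They were drawn from a normal spread on the log2 scale. They therefore cannot test the scaling of the samples or the assignment of fragments to overlapping transcripts. Other calculations used Python 3.11.15, numpy 2.4.6, pandas 2.3.3, and matplotlib 3.10.9.

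The lincRNAs and the lists were chosen with earlier results of these data known. Named besides the 6 are lincRNAs next to a threshold, the 2 nearest profiles of each, overlapping lincRNAs, and, in the closing section, adjacent identifiers. The alternatives were other pseudocounts (1 and 0.01), no filter or one at 1 FPKM, median-ratio rescaling over transcripts above 1 FPKM in every sample, quantile normalization, no trend, only the 6 heart samples, a replicate block, an adjusted p below 0.01, medians, and leaving out each sample. Sums over overlapping lincRNAs were added after seeing the data. No protein-coding gene, pathway, or marker list was analysed here.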

Additional observations from a re-analysis of the deposited data

How the results depend on the processing

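Between the hearts, TCONS_00023920 was called under every alternative run. TCONS_00009015 is left out here, since its difference is a description. TCONS_00023933 and TCONS_00028652 were called only after quantile normalization. That alternative reversed TCONS_00017202 to -0.12 on the log2 scale. Without each sample in turn, TCONS_00023920 stayed called, and TCONS_00023933 and TCONS_00028652 stayed uncalled. Over all transcripts, 13419 were called, 8423 of them higher in adult heart, compared with 13037 and 6803 after quantile normalization, which took the median difference of all transcripts from 0.18 to near 0. An adjusted p below 0.01 left 6907 calls, and leaving out single samples gave 9400 to 13282. With the replicate number as a block, 11659 were called, TCONS_00023920 among them. The block changed no call among the 5 of the 6 lincRNAs that were tested. The numbers were not taken as pairs, because no source used here says that they mark a shared fish or batch. Same-numbered samples had a mean correlation of deviations of 0.023 for adult with embryonic heart and 0.016 for adult heart with muscle. Other numbers had -0.012 and -0.008. Each tissue type was centred on its own mean, which largely ties these values to the first, so the comparison cannot decide on pairs. The adjusted p of TCONS_00023933 ran from 0.00850 to 0.144 over its alternatives, and its ratio passed 2 only after quantile normalization. Between 8 and 10 lincRNAs met the thresholds without each sample in turn, always with the 6 among them. The 6 were no longer those with the highest means after median-ratio rescaling or without embryonic heart replicate 0, 1, or 2. Muscle was above adult heart in 5 of the 6, but in 4 with medians, without adult muscle replicate 2, or after quantile normalization. The share of FPKM given to overlapping transcripts could not be checked without reads.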

Other observations

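Transcripts numbered next to the 6 lincRNAs were looked up in the values, because identifiers of the assembly tend to run along a sequence. Of the 75 pairs of cardiac lincRNAs with consecutive numbers, all 75 lay on the same sequence and 59 had overlapping spans. The positions of the transcripts below are not part of the values used here, and their relation to the 6 lincRNAs was not tested.

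TCONS_00009016 and TCONS_00009017, which follow TCONS_00009015 and were chosen after their values were seen in the latter case, had the same order of tissues as TCONS_00009015. TCONS_00009016 had 6.34 ± 0.803 FPKM in embryonic heart, 3.88 ± 0.338 FPKM in adult muscle, and 1.65 ± 0.294 FPKM in adult heart (SD, n = 3 each). TCONS_00009017 had 14.4 ± 1.60, 10.7 ± 0.264, and 4.88 ± 0.150 FPKM (SD, n = 3 each) in that order. Muscle was 2.36 and 2.202 times adult heart, compared with 1.82 times of TCONS_00009015, whereas adult heart was 0.260 and 0.339 times embryonic heart, compared with 0.151 times.

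TCONS_00028651, the number before TCONS_00028652, was more abundant than any of the 6 in every tissue type, with 1014 ± 46.2 FPKM in embryonic heart, 527 ± 108 FPKM in adult heart, and 971 ± 145 FPKM in adult muscle (SD, n = 3 each). TCONS_00000868, between TCONS_00000867 and TCONS_00000869, had 28.4 ± 3.35 FPKM in adult muscle, compared with 4.06 FPKM in adult heart and 0.579 FPKM in embryonic heart, where each mean rested on 1 sample of 3, at 12.2 and 1.74 FPKM. TCONS_00023932, the number before TCONS_00023933, had 20.8 ± 6.19 FPKM in embryonic heart, 16.5 ± 4.97 FPKM in adult heart, and 6.09 ± 0.359 FPKM in adult muscle (SD, n = 3 each). The identifiers on both sides of TCONS_00017202 and of TCONS_00023920 had means below 1 FPKM in all 3 tissue types.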
